A study of Mus musculus with 21 samples.

Results

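Retained intron events are places where some transcripts of a gene keep a stretch of sequence inside 1 exon and other transcripts splice exactly that stretch out. The members were all events of this kind among the transcripts that long reads gave over 7 stages of the mouse life cycle, rebuilt with the event definitions of SUPPA2: an exon of 1 transcript had to begin and end with the outer boundaries of a pair of neighbouring exons of another transcript of the same locus. There were 252 such events among 5715 alternative splicing events of 7 types, or 4.41%. The other events were 1669 skipped exons, 1486 alternative first exons, 1131 alternative 5′ splice sites, 941 alternative 3′ splice sites, 168 alternative last exons and 68 mutually exclusive exons. The 252 events lay in 206 loci, of which 175 held 1 event and 31 held 2 or more. They belonged to 194 named genes of the GENCODE vM21 annotation, with 12 events that had no annotated gene on their strand, and 228 lay in protein-coding genes. Members are not independent of each other, since 70 events shared a retained transcript with another event. Srsf7 alone held 7 of them and Ubb held 6.

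The libraries were made from pooled gametes and embryos. Oocytes came from C57BL/6J females of 3 to 5 weeks that had received 7.5 IU PMSG and, 48 h later, 7.5 IU hCG, and were taken 20 h after hCG. Embryos of such females mated with DBA/2 males (DBA/2J in the titles, DBA/2N in the protocol) were cultured in KSOM, a medium for mouse embryos, and were taken 24 to 26 h after hCG as 1-cell, 46 to 48 h as 2-cell, 54 to 58 h as 4-cell, 68 to 70 h as 8-cell and 94 to 96 h as blastocyst. Sperm came from the epididymis of DBA/2 males. No group carried an engineered allele. Each stage had 2 short-read libraries, made by SMART-seq2, a full-length method that does not keep the strand, and 1 long-read library that mixed the cDNA of both batches. Since sperm were DBA/2, oocytes C57BL/6J and embryos hybrid, strain cannot be told apart from cell type in a comparison of sperm with oocytes. The files give expression as TPM, a unit of transcript abundance scaled to the same total in each library, which keeps no read depth, and with pooled samples fewer cells of a type and less RNA per cell cannot be told apart.

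Marker genes of sperm, oocytes and blastocysts were highest in their own libraries. Exceptions for other cells and for the 2-cell stage bear on the members. The summed TPM of 7 sperm genes was 14223 and 20916 in the sperm libraries and at most 46.4 elsewhere, that of 8 oocyte genes was 5207 and 16744 in oocytes and 2685 and 2527 in 1-cell embryos, and that of 7 blastocyst genes was 10291 and 35795 in blastocysts. Genes of the epididymis, of which 3 of the 6 listed were in the merged annotation, summed to 2577 and 404 TPM in sperm replicates 1 and 2 and to at most 2.99 elsewhere. A list of 5 leukocyte genes, added after the values were seen, summed to 77431 and 16107 TPM in the same libraries and to between 3.91 and 110.3 elsewhere. Markers of other cells thus stood beside those of sperm in both sperm libraries, and the part of such RNA in the sperm values given here was not tested. The 5 measured genes of the 2-cell list summed to 16.8 TPM in 2-cell replicate 1 and 312 TPM in replicate 2, and the oocyte genes to 116 and 1327 TPM in these libraries, which thus differed in both. The 2-cell list stood at 13.1 TPM in 1-cell replicate 2, 31.1 and 35.4 TPM in 4-cell and 21.9 and 13.2 TPM in 8-cell. It thus did not set 2-cell replicate 1 apart. None of the 7 listed follicle cell genes was in the annotation.

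Removal of an intron by the spliceosome starts at GT, the first bases of most introns, and ends at AG, the last ones. An intron that stays in a spliced and polyadenylated RNA can hold the RNA in the nucleus, or bring a stop codon into the reading frame, which exposes the RNA to nonsense-mediated decay once it is translated. Splicing factors and their kinases are well known for introns of this kind, some of which are removed later on a signal. The growing oocyte stores RNA and is then silent in transcription, and the embryo starts its own transcription during the 1-cell and 2-cell stages, so that stored RNA dominates early and newly made RNA later.

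The introns of Rbm39 and Cirbp, of 2 RNA-binding proteins whose retained share was lowest in oocytes and 1-cell embryos, are shown whole in the sense of the gene. Capitals mark the first and last pair of bases and, inside, the first stop codon that continues the reading frame of the exon before. The Rbm39 intron lay at chr2:156178953-156179176 on the minus strand of mm10 and was 224 bases long, with the first in-frame stop codon, TAA, at base 25. The Cirbp intron lay at chr10:80170765-80170981 on the plus strand and was 217 bases long, with TGA at base 27. Both were read from GENCODE vM21 transcripts of GRCm38, the assembly of mm10, that keep the intron.
Rbm39: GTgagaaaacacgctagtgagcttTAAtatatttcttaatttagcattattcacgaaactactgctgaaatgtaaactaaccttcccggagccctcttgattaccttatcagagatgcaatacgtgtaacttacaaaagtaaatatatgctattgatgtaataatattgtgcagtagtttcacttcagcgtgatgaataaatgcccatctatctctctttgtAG
Cirbp: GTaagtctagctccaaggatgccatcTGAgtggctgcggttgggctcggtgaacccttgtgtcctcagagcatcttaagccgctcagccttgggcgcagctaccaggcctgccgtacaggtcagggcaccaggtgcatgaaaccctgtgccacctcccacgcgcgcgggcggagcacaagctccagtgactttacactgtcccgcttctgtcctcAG

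Of longer introns only the ends are shown, the first and the last 30 bases, to let the splice sites be compared. Khdc3 (chr9:73103890-73104342, plus strand) and Ccnl1 (chr3:65948791-65950479, minus strand) were introns whose retained form rose after the 1-cell stage, and Dusp1 (chr17:26506651-26506984, minus strand) had the lowest median share of the retained form among members with at least 5 TPM in every library. In Ccnl1 the frame met TAA at base 2 of the intron, within the splice site itself.
Khdc3 first: GTtcgtgaggctgccacgcagctgtctccc
Khdc3 last: cttcatctttctttctggtttttgccctAG
Ccnl1 first: GTAAgttcctcttttacattgcttctttag
Ccnl1 last: aactaaacttagagctgaaatgtttttcAG
Dusp1 first: GTaaatggaataactatctggaacctctgc
Dusp1 last: ttttgagtaacccataactttattttccAG

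The events fell into classes by the annotation. In 138 of the 252, or 54.8%, the spliced stretch was an intron of vM21, against 89.2% of all 70352 introns of the merged transcripts. In 85 it was a gap inside a single annotated exon, so that the retained form was the annotated one and the spliced form was not. In the remaining 29 neither form was annotated. The retained form was also a vM21 exon in 83 of the 138 annotated introns. Of these 138, 107 lay within coding sequence, 14 in a 3′ UTR, 3 in a 5′ UTR and 14 in noncoding transcripts.

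Retained annotated introns were short. Their median length was 408 bases (69 to 1813 bases), and 87.0% were under 1000 bases, while the 62730 annotated introns of the merged transcripts had a median of 1259 bases with 43.5% under 1000. The gaps inside exons were shorter, with a median of 228 bases (20 to 1330 bases), and the 29 events with neither form annotated had a median of 403 bases. The longest were an intron of Sf3b1, a U2 snRNP protein, with 1813 bases, one of Ccnl1, cyclin L1, with 1689 bases, and one of Eif4e2, a cap-binding protein, with 1567 bases. An event needs 1 long-read transcript that spans the whole stretch and both exons, so the definition itself bears on length. Position differed too, since 56.3% of members were the last intron of their spliced transcript, against 17.2% of all introns of merged transcripts. That share was 44.2% for annotated introns, 71.8% for gaps and 69.0% where neither form was annotated. These are shares of transcripts as assembled, whose 5′ ends may be incomplete.

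**Figure D1:**
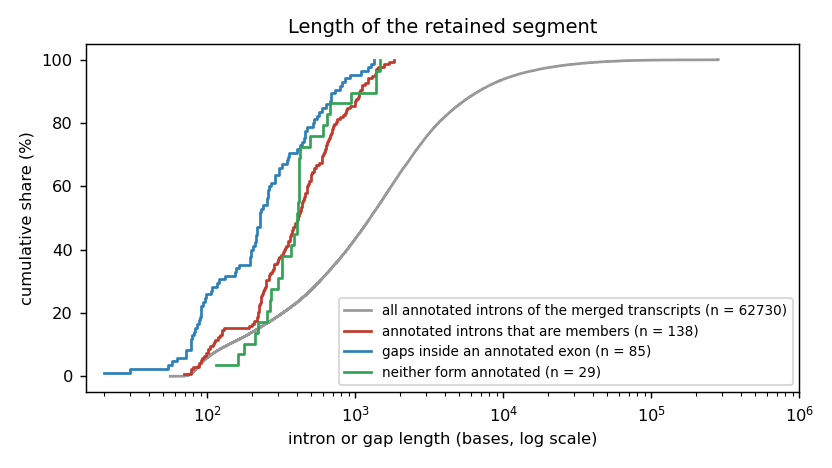
Cumulative share (%, y axis) of introns or gaps against their length in bases (x axis, log scale) for all annotated introns of the merged transcripts and for the retained introns by class. The curve of the retained annotated introns lies left of that of all annotated introns, with medians of 408 and 1259 bases, and the gaps inside exons are shortest.

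The ends of the spliced stretch separated the classes. Of 84 annotated introns whose sequence could be read inside an annotated exon, 82 had GT-AG ends and 2 had GC-AG ends. Of 83 gaps that could be read, 40 had GT-AG ends, 2 had GC-AG ends and 41 had neither pair. A direct repeat was counted from both ends of the stretch. Its length was the bases shared by the start and the sequence just after, plus those shared by the end and the sequence just before. It was at least 6 bases in 3 of 83 annotated introns. Among gaps it was so in 8 of 40 with GT-AG or GC-AG ends and in 10 of 40 with other ends. Median GC content was 47.8% in annotated introns and 54.1% in gaps. The gaps lay in coding sequence in 31 cases, in a 3′ UTR in 30, across coding sequence and UTR in 9, in a 5′ UTR in 3 and in noncoding transcripts in 10.

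The gaps of Ubb, which encodes ubiquitin as a row of head-to-tail copies, show what such a repeat looks like. They are named here after their values were seen. Its 6 events had gaps of 227, 683, 228, 456, 228 and 227 bases. In the gap at chr11:62552369-62552824 and in the gap at chr11:62552422-62552649, both on the plus strand of mm10, the first 20 bases of the gap, given first, recurred letter for letter as the 20 bases after it, given second, with the first pair of bases in capitals. The match was followed for at most 20 bases at each end, so the lengths are lower bounds. The direct repeats reached at least 40 bases in both of these gaps and at least 23 in the gap that starts at base 62552194.
Ubb gap of 456 bases, first 20: GTggcatgcagatcttcgtg
after that gap: GTggcatgcagatcttcgtg
Ubb gap of 228 bases, first 20: GTggagcccagtgacaccat
after that gap: GTggagcccagtgacaccat

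PSI, the share of the summed TPM of both forms that the retained form held, was steady over the stages for the gap of 456 bases in Ubb, at 50.3% to 68.2% in the 14 libraries. In Ubb the gap of 228 bases shown above ran from 71.9% to 97.7%. Since reads are shared among near-identical ubiquitin copies, these values are uncertain.

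In 58 coding introns the frame could be followed from the exon before. In-frame stop codons were present in 50 of them, the first at a median of 38.5 bases from the start of the intron. The 8 introns with no in-frame stop were those of Mrps24, Slc7a4, Rnf8, Hnrnpm, Stx5a, Mrps26, Adrm1 and Pja1. A length that is a multiple of 3 was found in 21 of the 58, and both properties together in 2, those of Hnrnpm, an RNA-binding splicing regulator, and Pja1, an E3 ubiquitin ligase. No test was made against introns outside the set.

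Each long-read pool also gave its own annotation, and retained introns took unlike shares of its events. In sperm 109 of 987 events were retained introns, or 11.0% (Wilson 95% interval 9.24 to 13.2). The oocyte pool had 21 of 946, or 2.22% (1.46 to 3.37), and the 1-cell pool had 12 of 1102, or 1.09% (0.624 to 1.89). From the 2-cell stage the shares were 4.63% (46 of 993, 3.49 to 6.12), 5.63% at 4-cell (72 of 1279, 4.49 to 7.03), 4.97% at 8-cell (61 of 1227, 3.89 to 6.33) and 5.90% in the blastocyst (50 of 848, 4.50 to 7.69). The intervals of the oocyte and the 1-cell pool lay below those of all other pools, and that of sperm above all others. With 1 pool a stage, the intervals cover counting error only and give no test between stages. Per the paper, the pools also differed in the mean length of subreads, the raw long reads, and in the number of consensus reads. Subreads were shorter in oocyte and 1-cell pools than in pools from 2-cell to 8-cell, but so were those of sperm and blastocyst. Sperm had the most consensus reads, and the oocyte pool had more than the 2-cell pool. The part of read length and depth in these shares was not tested.

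**Figure D2:**
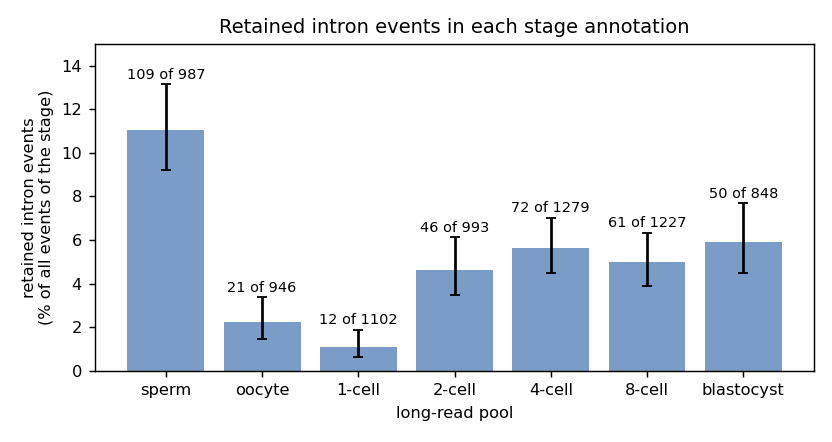
Retained intron events as a share (%, y axis) of all alternative splicing events in the annotation of each long-read pool (x axis, 1 pool a stage). Bars give the share, error bars the Wilson 95% interval and the numbers above the events counted. The bars of oocyte (2.22%) and 1-cell (1.09%) are lowest and that of sperm (11.0%) is highest.

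The pools were also searched for the retained form of the 252 members. Since the members were defined from these same pools, the order among pools is no second line of support. The retained form was present for 124 members in the sperm pool, for 58 in the oocyte pool and for 47 in the 1-cell pool. The later pools held 101 (2-cell), 116 (4-cell), 85 (8-cell) and 89 (blastocyst). In 124 members the retained form was seen in 1 pool only. For 65 of them that pool was sperm, for 2 it was oocyte and for 2 it was 1-cell. Annotated introns made up 91 of those 124. For gaps the spliced form was the rare one: it was seen in 1 pool only for 71 of 85, while the retained form was in all 7 pools for 20.

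Short reads gave the share of each form in every library. An event was taken as measured where both forms together reached 1 TPM, which left 166 members in each oocyte library, 179 to 187 in 1-cell and 194 to 237 in the others, with 123 measured in all 14. PSI compares whole transcripts, which can differ outside the intron as well. Members were chosen by long reads of the same cDNA, and the oocyte and 1-cell pools held the fewest retained forms. The order of PSI among stages is thus not independent of that choice. For retained annotated introns the median PSI was 1.07% and 1.31% in oocytes, 1.55% and 2.13% in 1-cell embryos, 8.06% and 12.8% in 2-cell embryos, 8.10% and 9.10% in 4-cell, 5.43% and 6.58% in 8-cell, 8.33% and 8.41% in blastocysts, and 24.0% and 22.3% in sperm. In each of the 8 libraries from 2-cell to blastocyst the median was above that of each oocyte and 1-cell library. The share of annotated introns with a stage mean PSI over 10% was 22.1% in oocytes (19 of 86), 28.6% in 1-cell (28 of 98), 51.3% in 2-cell (60 of 117), 45.0% in 4-cell (54 of 120), 38.6% in 8-cell (44 of 114), 45.0% in blastocyst (49 of 109) and 67.5% in sperm (85 of 126). The gaps inside exons had medians between 86.4% and 96.3% in every library, so that in the median gap the unannotated spliced form was the minor one.

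Over all members the medians were 21.1% and 28.6% in oocytes, 29.5% and 28.4% in 1-cell, 36.2% and 40.2% in 2-cell, 40.3% and 41.8% in 4-cell, 38.5% and 38.4% in 8-cell, 51.4% and 44.3% in blastocysts and 50.8% and 51.0% in sperm. This order depended on the reference. When each library was quantified against only the long-read transcripts found at its stage, with the events of that stage, the medians were 64.5% and 66.0% in oocytes and 73.8% and 72.3% in 1-cell embryos, the highest of all stages. Here every event had a long read of its retained form at that stage, and the cause of the changed order was not tested. Replicates differed by a median of 1.14 points in oocytes to 5.10 points in sperm, and 17.4% of members in sperm and 15.3% in 2-cell embryos were over 20 points apart, against at most 8.29% in the other stages.

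**Figure D3:**
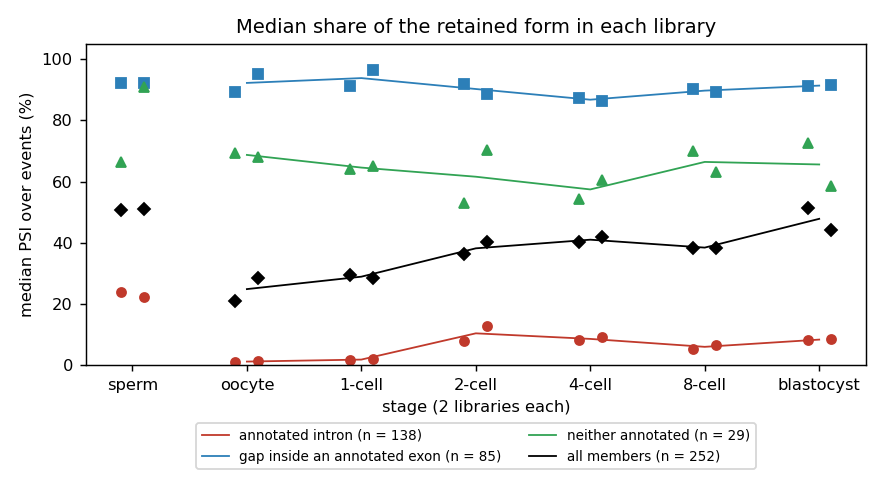
Median PSI (%, y axis) over the measured events of each class and over all members, for each of the 14 libraries (x axis, 2 points a stage), with lines through the mean of both libraries from oocyte to blastocyst. The annotated introns sit at 1.07% to 2.13% in oocyte and 1-cell libraries and at 5.43% to 12.8% from 2-cell on, while the gaps stay between 86.4% and 96.3%.

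Long reads and short reads were compared at the level of the event. Among annotated introns, those whose retained form had a long read at a stage had a higher median PSI at that stage than those without one: 71.5% (14 introns) against 0.838% (72) in oocytes, 57.9% (6) against 1.76% (92) in 1-cell, 18.7% against 9.25% in 2-cell, 12.0% against 5.35% in 4-cell, 25% against 4.70% in 8-cell, 47.6% against 5.39% in blastocyst and 29.7% against 13.8% in sperm. Both kinds of read came from the same cDNA.

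Libraries up to the 1-cell stage were then compared with those after it, member by member. The split was chosen after the values were seen. A member needed a long read of its retained form, which the oocyte pool held for 58 members and the 1-cell pool for 47. Each other pool held it for 85 to 124. The shares by direction below are thus not independent of how members were chosen. Of 128 members measured in all 12 libraries from oocyte to blastocyst, 30 had a higher PSI in each of the 8 libraries from 2-cell to blastocyst than in each of the 4 oocyte and 1-cell libraries, or 23.4%. The same held for 8.32% of 3052 events of all types. For alternative first, last and mutually exclusive exons PSI was that of the form at the lower coordinate. Higher and lower thus have no fixed meaning for them, here and in later shares of all events by direction. The opposite, a lower PSI in all 8 later libraries, held for 8 members, or 6.25%, against 9.67% of all events. The 30 lay in 26 named genes and 1 unnamed locus. They comprised 27 of 76 annotated introns, or 35.5%, 0 of 46 gaps and 3 of 6 events with neither form annotated. With forms summing to at least 5 TPM, the count was 19 of 86 members, or 22.1%, against 9.06% of all events. A gap of over 5 points between the groups was found for 13 of the 128, or 10.2%, against 3.83% of all events. Leaving out the 2-cell libraries gave 33 of 130, or 25.4%, against 12.7% of all events, and leaving out the blastocyst libraries 34 of 135, or 25.2%, against 11% of all events.

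In 29 of these 30 events the mean TPM of the retained form was higher in the later libraries, while that of the spliced form was higher in 17 and lower in 13. PSI in both sperm libraries was above the highest early value in 29 of the 30, beside the epididymal and leukocyte RNA given above. In the long reads, which came from the same cDNA, the retained form of the 27 annotated introns was in the oocyte or the 1-cell pool for 0 and the spliced form for 22. Of the 46 annotated introns whose libraries overlapped, the retained form was there for 8 and the spliced form for 32. Every member needed a long read of its retained form in some pool, so the 27 became members through other pools. These long-read counts are thus no support for the order of PSI.

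Rbm39 (ENSMUSG00000027620.16), a splicing factor related to U2AF, had a PSI of 1.02% and 0.455% in oocytes, 1.25% and 3.41% in 1-cell, 28.5% and 12.8% in 2-cell, 51.1% and 43.1% in 4-cell, 37.5% and 42.3% in 8-cell, and 56.3% and 50.7% in blastocysts. Sperm had 93.0% and 66.4%. The oocyte and 1-cell libraries were lowest, and the 2-cell libraries lay between them and the rest without overlap. The retained form of Rbm39 went from 1.36 and 1.17 TPM in oocytes to 108 and 61.2 TPM at 4-cell, and the spliced form from 131 and 257 TPM to 103 and 80.6 TPM. In the test among stages the adjusted p of Rbm39 was 0.000440 (limma moderated F test). That test asks for any difference among the stages from oocyte to blastocyst and not which stages are lowest or highest.

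Khdc3 (ENSMUSG00000092622.8), a protein of the subcortical maternal complex of oocytes, had a PSI of 2.14% and 4.47% in oocytes and 7.01% and 7.34% in 1-cell. The values then were 36.6% and 18.1% in 2-cell, 68.8% and 68.7% in 4-cell, 71.4% and 72.9% in 8-cell and 63.2% and 59.3% in blastocysts. No later library overlapped an early one. The adjusted p of Khdc3 in the test among stages was 0.00194 (limma). In sperm the 2 libraries gave 100% and 0% of at most 4.61 TPM, too little to read a share from. The level of Khdc3 differed widely between replicates, with 683 and 5663 TPM of the retained form in blastocysts. A second Khdc3 event was not tested among stages, since its forms did not reach 1 TPM in every library. There PSI was 92.0% to 100% in oocyte and 1-cell libraries and 71.4% to 97.7% from 2-cell to blastocyst.

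Pttg1 (ENSMUSG00000020415.16) encodes securin, which holds separase inactive until anaphase, and its intron of 619 bases lay in the 3′ UTR. Its PSI was 2.02% and 4.74% in oocytes, 1.96% and 3.08% in 1-cell, 31.6% and 35.4% in 2-cell, 48.1% and 40.3% in 4-cell, 30.5% and 30.4% in 8-cell and 50.7% and 57.5% in blastocysts (adjusted p = 0.00821, limma). Abraxas1 (ENSMUSG00000035234.18), a scaffold of the BRCA1-A complex, kept an intron of 446 bases of its 3′ UTR, with a PSI of 3.03% and 1.36% in oocytes and 2.61% and 2.76% in 1-cell. Abraxas1 was highest in 2-cell embryos, at 72.2% and 39.9%, and was 24.6% and 29.9% in 4-cell, 21.1% and 19% in 8-cell and 24.0% and 18.1% in blastocysts (adjusted p = 0.000977, limma). For both genes all later libraries were above all early ones. The Pttg1 values above set 1 retained against 1 spliced transcript and leave out other spliced transcripts of Pttg1. A second Pttg1 event, at a coding intron of 698 bases, set the same retained transcript against 3 of these. There PSI was 0.00536% to 0.0176% in oocyte and 1-cell libraries and 0.779% to 8.17% from 2-cell to blastocyst. With a range of stage means of 5.25 points, that event was not called among stages.

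Cirbp (ENSMUSG00000045193.13), a cold-inducible RNA-binding protein, changed at a lower level: 0.267% and 0.833% in oocytes, 0.659% and 1.55% in 1-cell, 14.7% and 22.9% in 2-cell, 14.1% and 15.0% in 4-cell, 8.49% and 7.92% in 8-cell and 11.1% and 9.83% in blastocysts (adjusted p = 0.00136, limma). Here the retained form of Cirbp stayed low, at 0.109 and 1.21 TPM in oocytes, 0.844 and 0.931 TPM in 1-cell and 0.961 to 2.24 TPM from 2-cell on. The spliced form was 40.6 and 144 TPM in oocytes and 127 and 59.3 TPM in 1-cell. It lay between 5.63 and 20.6 TPM in all libraries from 2-cell on. Ccnl1 (ENSMUSG00000027829.15), a cyclin found with splicing factors, had a PSI of 0.531% to 0.934% in the 4 early libraries and of 10.8% to 21.4% in the 8 later ones (adjusted p = 0.00184, limma). The groups of Ccnl1 did not overlap.

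Others of the 30 had smaller ranges. Gas5, a noncoding host gene of small nucleolar RNAs, had 2 such introns, of which the one at chr1:161036853-161037287 on the plus strand went from at most 1.32% in the early libraries to 3.11% to 15.1% in the later ones, with an adjusted p of 0.0734 in the limma test among stages, which it did not pass. Pabpn1, the nuclear poly(A)-binding protein, had values from at most 0.789% to at least 1.82%, Sdhb, a subunit of respiratory complex II, from 0 to at least 0.102%, and Rack1, a ribosomal protein, from at most 0.421% to at least 1.46%. None of these 3 passed the test among stages, Pabpn1 and Rack1 with adjusted p of 0.253 and 0.104 and Sdhb, at 0.000619, with a range of stage means under 10 points (limma).

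**Figure D4:**
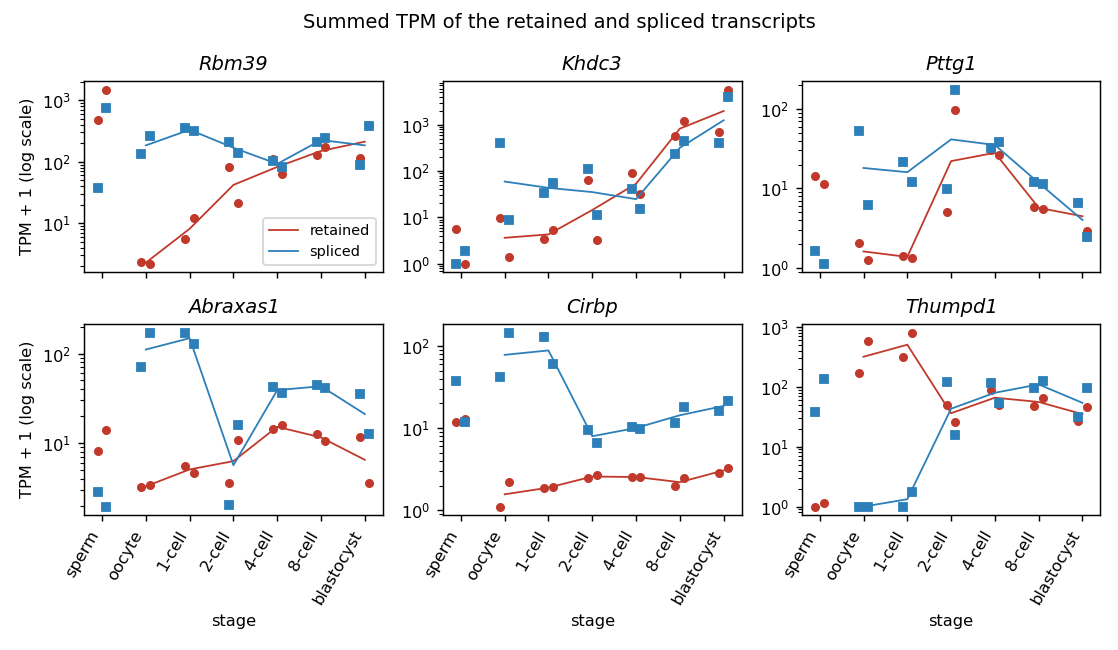
Summed TPM plus 1 (y axis, log scale) of the retained and the spliced transcripts of 6 members by stage (x axis), with 1 point a library and lines through the geometric mean from oocyte to blastocyst. The retained form of Rbm39 goes from 1.36 and 1.17 TPM in oocytes to 108 and 61.2 TPM at 4-cell. That of Cirbp is 0.109 and 1.21 TPM in oocytes and 0.961 to 2.24 TPM from 2-cell to blastocyst.

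The test among the 6 stages from oocyte to blastocyst called 32 of the 128 members (limma moderated F test with Benjamini-Hochberg adjustment over all event types, adjusted p under 0.05, a range of stage means over 10 points), or 25%, near the 28.1% of the 3052 events of all types. The members' share of called events was thus close to that of splicing events in general. Of the 32, 21 had their lowest stage mean in oocytes or 1-cell embryos and 9 their highest. The other 2 were Wtap, a subunit of the m6A methyltransferase, and Crb3, a polarity protein. The same split over all 858 called events is not given here. Annotated introns made up 16 of the 21, and their medians in oocyte and 1-cell libraries, 1.07% to 2.13%, were close to the lowest possible value. By class, 21 of 76 annotated introns, 6 of 46 gaps and 5 of 6 events with neither form annotated were called. Beside the genes described above, this limma test called Rsrp1 (adjusted p = 0.000859), Sirt4 (0.000920), Plpp5 (0.00187), Serf2 (0.00309), Mad2l1 (0.00467) and Snrpa1 (0.0490). Their lowest stage mean was in oocytes or 1-cell embryos, which the test itself does not ask. Of these, Sirt4 is a mitochondrial sirtuin, Mad2l1 a spindle checkpoint protein and Snrpa1 a protein of the U2 snRNP. Without both 2-cell libraries 33 were called, and 18 among members with forms summing to at least 5 TPM. The shares of all events called in these settings are not given here.

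**Figure D5:**
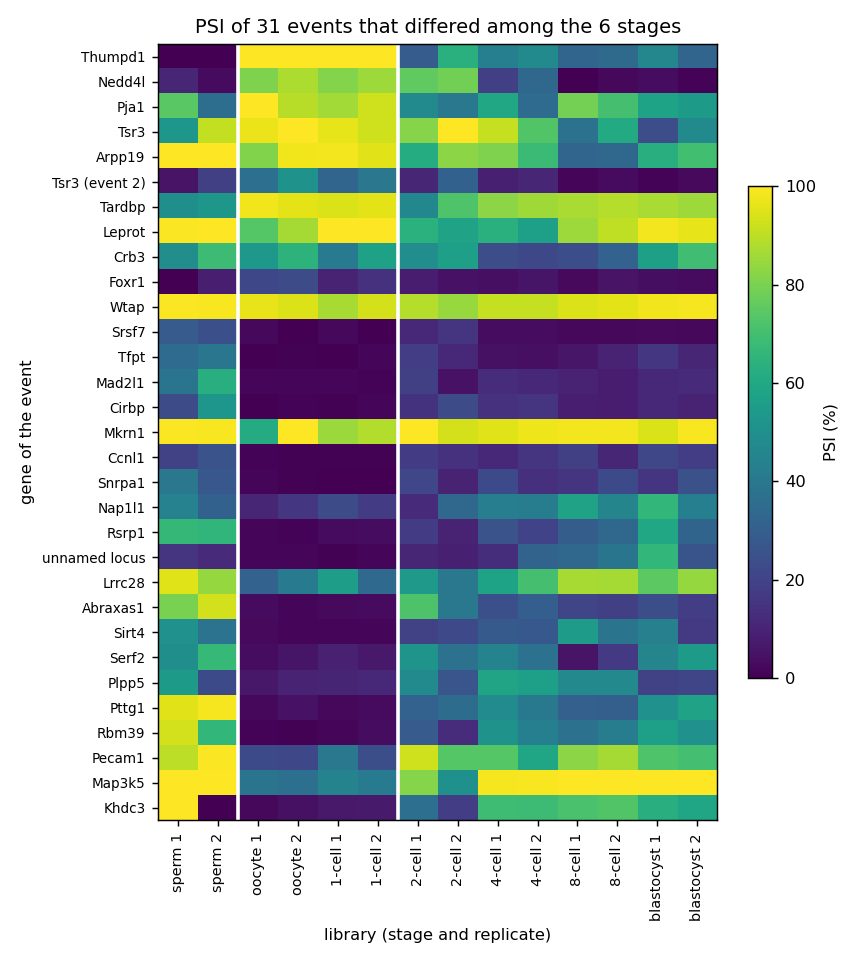
PSI (colour, %) of 31 of the 32 members called in the test among stages (rows, named by gene) in each of the 14 libraries (columns, stage and replicate), ordered by the difference between later and early libraries. White lines set off the sperm libraries and the oocyte and 1-cell libraries. Most rows are dark in oocyte and 1-cell and lighter afterwards, and a smaller block at the top shows the opposite.

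The opposite course was led by Nedd4l (ENSMUSG00000024589.17), a HECT-type ubiquitin ligase, at an annotated intron of 201 bases (chr18:65181127-65181327, plus strand of mm10). Its PSI was 80.7% and 87.6% in oocytes, 81.6% and 85.4% in 1-cell and 75.8% and 78.5% in 2-cell. In 4-cell embryos Nedd4l stood at 18.9% and 33.8%, in 8-cell at 0% and 2.14% and in blastocysts at 3.29% and 0.938% (adjusted p = 0.000188, limma). The 3 early stages did not overlap the 3 later ones. The retained form went from 232 and 735 TPM in oocytes to at most 1.78 TPM from 8-cell on, while the spliced form of Nedd4l was between 3.32 and 178 TPM throughout.

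Thumpd1 (ENSMUSG00000030942.8), which takes part in tRNA acetylation, held a gap of 349 bases in its 3′ UTR (chr7:119715351-119715699, minus strand of mm10) with GG-GG ends. The form without a gap made up 100% in both oocyte libraries and 100% and 99.9% in 1-cell. It made up 29.1% and 63.6% in 2-cell, 43.0% and 47.5% in 4-cell, 32.7% and 34.4% in 8-cell and 46.1% and 32.6% in blastocysts (adjusted p = 0.000138, limma), and 0% and 0.123% in sperm. The 2 sperm libraries, of DBA/2 males, thus held almost only the form with the gap, the oocytes of C57BL/6J females only the form without it, and the hybrid embryos from 2-cell on both, while the 1-cell embryos, which are hybrid too, were like the oocytes. Long reads gave the same picture, with the form with the gap of Thumpd1 in the sperm pool and in all pools from 2-cell on and in neither the oocyte nor the 1-cell pool. Strain and stage cannot be told apart here.

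Arpp19 (ENSMUSG00000007656.13), an inhibitor of the phosphatase PP2A-B55 at entry into mitosis and meiosis, was lowest in 8-cell embryos, with a PSI of 32.7% and 33.5%. Its PSI was 81.0% to 98.1% in the 4 early libraries, 62.0% to 82.6% in 2-cell and 4-cell and 63.0% and 69.9% in blastocysts. The adjusted p of Arpp19 in the test among stages was 0.00955 (limma). Tsr3 (ENSMUSG00000015126.9), an enzyme of 18S rRNA modification, went from 93.0% to 100% in the 4 early libraries to 23.5% and 47.8% in blastocysts at an intron with neither form annotated (adjusted p = 0.00753, limma), and its 2-cell libraries, at 82.0% and 100%, overlapped the early ones. A second Tsr3 event, at an annotated intron, was also called (adjusted p = 0.00187, limma). There PSI was 32.7% to 51.4% in the early libraries and 1.01% to 31.2% from 2-cell on.

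Map3k5 (ENSMUSG00000071369.11), a stress kinase, and Pecam1 (ENSMUSG00000020717.19), an adhesion molecule, moved the other way. In Map3k5 PSI was 36.6% to 44.6% in the early libraries, 81.7% and 50.3% in 2-cell and 98.5% to 100% from 4-cell on (adjusted p = 0.00887, limma). The spliced form of Map3k5 went from 7.59 to 43.9 TPM in the early libraries to at most 0.0752 TPM from 4-cell on, and its retained form from 4.63 to 27.6 TPM to 1.40 to 4.82 TPM. Pecam1 had a PSI of 21.6% to 40.2% in the early libraries and of 59.3% to 92.7% in the later ones (adjusted p = 0.00620, limma), on a retained form of 0.496 to 19.8 TPM. Both events had neither form in the annotation.

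Between neighbouring stages few members passed. The rule was an adjusted p under 0.05 in limma and a PSI difference over 10 points, over the 4 libraries of both stages. From oocyte to 1-cell 0 of 151 members were called (0% of all events, 7 members with an unadjusted p under 0.05). From 1-cell to 2-cell it was 0 of 168 (0.167% of all events, 40 members with an unadjusted p under 0.05), at the step to 4-cell 0 of 211 (0% of all events, 34 members) and at the step to blastocyst 0 of 189 (0% of all events, 39 members), all by limma. Of all events, 0.0476% were called higher and 0.119% lower at the step to 2-cell. Mean PSI was higher in 2-cell than in 1-cell embryos in 107 of 168 members and in 77 of 96 annotated introns, by a median of 4.84 points in the latter. This is a count over members that partly share transcripts and not a test, and the share over all events was not counted. Annotated introns had 1-cell medians of 1.55% and 2.13%, which leave little room to fall. The 2-cell libraries differed from each other in the level of 2-cell genes and of oocyte genes, as given above, and the spread between them enters this test. A fit over all 14 libraries with a shared spread called 21 members for this step. The share of all events called by that fit is not given here, so the count is not read as a trait of the members.

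Values that did not pass in these steps are given for the 5 members with the smallest p among those with a difference over 10 points. From 1-cell to 2-cell, Cirbp, Ccnl1, Abraxas1, Mkrn1 and Thumpd1 had adjusted p between 0.0547 and 0.0855 (limma). Mean PSI went from 1.10% to 18.8% in Cirbp, from 0.675% to 16.2% in Ccnl1 and from 2.68% to 56.0% in Abraxas1. From 2-cell to 4-cell the smallest p were those of Sipa1l1, Ftl1-ps1, Srsf7, Nedd4l and Khdc3, each with an adjusted p of 0.254 (limma), and from 8-cell to blastocyst those of Gas5, Fuca2, Luc7l, Crb3 and Arpp19, between 0.208 and 0.217. Crb3 had a mean PSI of 27.7% in 8-cell embryos and 63.1% in blastocysts, and Luc7l, a U1 snRNP-associated protein, of 21.5% and 55.0%. From oocyte to 1-cell they were Reep6, Gm10436, Stip1, Otub1 and Bglap3, with adjusted p between 0.559 and 0.929 (limma).

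From 4-cell to 8-cell 3 of 210 members were called, or 1.43%, against 3.46% of all events. PSI was higher in 1, or 0.476%, and lower in 2, or 0.952%, against 1.85% and 1.61% of all events. Nedd4l fell from a mean PSI of 26.3% to 1.07% (log2 ratio of retained to spliced form changed by -3.55, SE 0.47, adjusted p = 0.0390). Arpp19 fell from 74.5% to 33.1% (-2.54, SE 0.43, adjusted p = 0.0433). Hk2, hexokinase 2 of glycolysis, rose from 85.4% to 99.4% at a gap of 1330 bases in its 3′ UTR with TT-TT ends (3.03, SE 0.34, adjusted p = 0.0376). The adjusted p of all 3 are limma's, and none of the 3 calls remained when any 1 of the 4 libraries was left out, since 0 members were then called. An unadjusted p under 0.05 was found for 56 members.

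Sperm and oocytes, both of which carry RNA made before fertilization, were compared next. Limma called 30 of 136 members, or 22.1%, against 14.3% of all events. PSI was higher in sperm for 25, or 18.4%, against 8.19% of all events, and lower for 5, or 3.68%, against 6.07%. For each of the 30 both sperm libraries lay on the same side of both oocyte libraries. Annotated introns made up 21 of the 25, and their difference was positive in 69 of the 80 tested, with a median of 10.3 points. The share of positive differences over all events was not counted. The 25 had a median difference of 53.2 points (10.1 to 93.8), and a long read of the retained form was in the sperm pool for 13 of them and in the oocyte pool for 1. Over all members the sperm pool held the retained form for 124 and the oocyte pool for 58. It was seen in sperm only for 65 members and in oocytes only for 2. Members were thus partly chosen through sperm, and the excess higher in sperm is not independent of that choice. The summed epididymal genes stood at 2577 and 404 TPM and the leukocyte genes at 77431 and 16107 TPM in these sperm libraries, and their part in the difference was not tested. The count rested on single libraries: it was 0 without sperm replicate 2, 12 without sperm replicate 1, 20 without oocyte replicate 1 and 11 without oocyte replicate 2.

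The largest differences were those of Thumpd1, described above (log2 ratio -14.36, SE 0.95, adjusted p = 0.00481), Pttg1 (3.38% in oocytes and 97.2% in sperm, 6.73, SE 0.95, adjusted p = 0.0113), Abraxas1 (2.2% and 86.4%, 7.26, SE 0.84, adjusted p = 0.00933), Rbm39 (0.739% and 79.7%, 8.69, SE 1.08, adjusted p = 0.00954) and Bglap3 (9.65% and 88.6%, 6.35, SE 1.53, adjusted p = 0.0391), all by limma. Other genes with introns higher in sperm included Clk1 (0.0609% and 71.3%), a kinase of SR splicing proteins, Mad2l1 (1.37% and 50.9%) and Pabpn1 (0.168% and 43.0%). Those lower in sperm included Thumpd1, Nedd4l (84.1% and 6.84%), Tardbp, an RNA-binding protein (96.7% and 51.4%) and Ypel5 (99.2% and 79.4%). Clk1, Mad2l1, Pabpn1, Tardbp and Ypel5 are named after their values were seen. The Pttg1 values here are those of the event at the intron of 619 bases.

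The members were also grouped by the first letters of the gene symbol, which leaves out genes of like function with other names, such as Cirbp, Tardbp and Pabpn1 among RNA-binding proteins and Rack1 in the ribosome. Symbols of splicing and RNA-binding families matched 15 events in 8 genes, Clk1, Ddx39, Hnrnpm, Luc7l, Rbm39, Sf3b1, Snrpa1 and Srsf7, and 11 of the events were annotated introns. In the test among stages 3 of 8 measured events were called, those of Rbm39, Snrpa1 and Srsf7, and against oocytes 4 of 9 were higher in sperm, those of Clk1, Rbm39, Snrpa1 and Ddx39. The counts for all members were 32 of 128 and 25 of 136. Srsf7, an SR protein, had 6 of its 7 events at 1 place, where different splice sites pair around 1 intron that a single retained transcript of the sperm pool keeps. The called Srsf7 event (adjusted p = 0.0233, limma) had a PSI of 0% to 2.27% in oocyte and 1-cell libraries. It was 11.4% and 15.2% in 2-cell and 1.97% to 3.37% from 4-cell on. Another event, at an intron of 1410 bases, was not tested among stages. Its forms together stayed under 1 TPM in oocyte replicate 1 and 1-cell replicate 2. Elsewhere its PSI was 66.3% and 69.4% in sperm, 0.817% in oocyte replicate 2 and 14% in 1-cell replicate 1. It was 34.2% and 29.7% in 2-cell and 6.75% to 9.67% from 4-cell on.

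The other named events of this group differed in course. Hnrnpm kept a PSI between 18.0% and 37.3% in all libraries but 1, oocyte replicate 1 with 3.02% (adjusted p = 0.930 among stages, limma). The pair of Sf3b1 events had the same PSI since they share their transcripts, at 12.7% to 36.2% from oocyte to blastocyst and 51.6% and 76.5% in sperm (adjusted p = 0.788, limma). Ddx39, an RNA helicase of mRNA export, was at 0.466% to 12.1% in the embryo and oocyte libraries and at 33.3% and 66.0% in sperm (adjusted p = 0.117 among stages, limma).

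Symbols of ribosomal proteins and translation factors matched 9 events in 7 genes, of which 0 of 8 were called among stages and 0 of 8 in sperm. Mrps24 and Mrps26, proteins of the small mitochondrial ribosomal subunit, kept introns of 77 and 80 bases, with PSI of 0% to 37.0% and of 0.559% to 20.3% and the highest value of both in 2-cell replicate 2. Eif5a, a translation factor, had 3 gaps of 62 to 72 bases, with PSI of 99.0% to 100%, 81.8% to 99.0% and 62.0% to 77.6% in all libraries. The 8 events matched by ubiquitin and proteasome symbols gave 0 calls among stages and 1, lower, in sperm. Symbols of mitochondrial respiration matched 4 events, of which 1 of 3 was called among stages. The zinc finger symbols of the list matched 1 event, in Zfp296, which was not called.

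Some members were near 0 or 100% everywhere. The lowest medians over the 14 libraries, among members with at least 5 TPM in all, were those of coding introns of Dusp1 (0%), Slc25a5 (0.215%), Map1lc3b (0.233%), Eif3i (0.250%) and Tmsb10 (0.296%), which encode a phosphatase of MAP kinases, an ADP/ATP carrier, an autophagosome protein, a translation factor subunit and a thymosin. In all 5 of them both sperm libraries were above both oocyte libraries, by less than 10 points, up to 8.06% and 9.52% against 0% and 0.0677% in Slc25a5. The highest medians were those of gaps in Txn2 (100%), Odc1 (100%), Smagp (100%), Ccdc117 (100%) and Ubb (99.8%). For Txn2 the spliced form of this gap had 0 TPM in all 14 libraries and a long read in the sperm pool only. The shortest gaps were 20 bases in Dppa3, 30 bases in Chchd2 and 54 bases in Zcchc10. Dppa3, a maternal factor that shields DNA methylation in the zygote, had a PSI of 30.9% to 40.7% in all 14 libraries (adjusted p = 0.998 among stages, limma) at chr6:122626482-122626501 on the plus strand, in its 5′ UTR, although a long read of the spliced form was seen only in the 8-cell pool. Chchd2 ran from 73.8% to 90% and Zcchc10 from 55.0% to 83.1%.

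Genes that act on unspliced or intron-containing RNA were followed on their own, in lists of 43 genes: factors of nonsense-mediated decay, the exon junction core, the CLK and SRPK kinases, the minor spliceosome, nuclear RNA surveillance and splice site recognition. Gene TPM was tested with limma on log2(TPM + 1). From 1-cell to 2-cell 9 were higher and 0 lower (19.9% of all genes were higher and 2.43% lower): Casc3, Rbm8a, Snrnp25, Snrnp35, Zmat5, Smg5, Pabpn1, Sf1 and Snrpc. These 9 calls were 0 with a replicate block and 0 without either 1-cell library. From 4-cell to 8-cell 1 was higher and 10 lower (10.9% and 26.9% of all genes): Upf1 rose, and Clk1, Casc3, Rnpc3, Snrnp25, Snrnp35, Exosc10, Mtrex, Pabpn1, Zcchc8 and Zfc3h1 fell. Nuclear surveillance made up 5 of these 10, out of 6 genes tested, with a median change of -1.22 on the log2 scale. The other steps gave 0 calls, at 1.11% higher and 0.156% lower of all genes from oocyte to 1-cell, 0% both ways at the step to 4-cell, and 1.33% and 1.99% at the step to blastocyst. Leaving out 2-cell replicate 1 or 2 gave 15 or 29 calls at the step to 4-cell, and leaving out blastocyst replicate 1 or 2 gave 14 or 4 at the step to blastocyst. The 11 calls at the step to 8-cell were 0 in a fit on all 14 libraries, 6 without 4-cell replicate 1 and 4 without 4-cell replicate 2. The median log2 change of all genes was 0.72 at the step to 2-cell and -0.36 at the step to 8-cell. With quantile normalization, which sets the libraries to 1 distribution, 3 and 6 genes were called in these steps.

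Of genes called in both steps, Pabpn1, whose own intron is among the members, had 20.5 and 40.0 TPM in oocytes, 10.7 and 23.1 TPM in 1-cell, 92.2 and 475 TPM in 2-cell, 202 and 245 TPM in 4-cell, 67.4 and 62.4 TPM in 8-cell and 81.7 and 25.6 TPM in blastocysts. Snrnp25, of the U11/U12 snRNP, had 3.00 and 0.340 TPM in 1-cell, 23.5 and 193 TPM in 2-cell, 210.5 and 292 TPM in 4-cell and 114 and 97.3 TPM in 8-cell. Snrnp35 of the same particle and Casc3 of the exon junction complex were at most 0.368 TPM in the 1-cell libraries, 18.4 and 35.8 TPM and 8.22 and 14.7 TPM in 2-cell, and 8.29 and 10.6 TPM and 13.9 and 14.1 TPM in 8-cell.

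Upf1, the helicase of nonsense-mediated decay, stood at 11571 and 5001 TPM in oocytes and 715 and 577 TPM in 1-cell (log2 change -3.56, SE 1.15, adjusted p = 0.0962, not passed). It rose from 260 and 184 TPM at 4-cell to 552 and 468 TPM at 8-cell (log2 change 1.22, SE 0.29, adjusted p = 0.0187). Clk1 had 81.8 and 80.0 TPM at 4-cell and 32 and 7.75 TPM at 8-cell (-2.27, SE 0.59, adjusted p = 0.0243). Srpk1, another kinase of SR proteins, was called in no step and lay between 94.7 and 638 TPM from oocyte to 8-cell and at 54.1 and 47.1 TPM in blastocysts. The p-values here and above measure the spread between libraries of 2 batches a stage.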

How the data were processed

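Mouse gametes and embryos were measured at 7 stages with 14 short-read libraries (2 a stage) and 7 long-read pools. Per the labels and the methods, the authors aligned long reads to mm10, collapsed them by stage and merged the stages, and deposited the exons as coordinates. The authors ran Salmon on each short-read library and deposited its TPM, against the merged transcripts and, separately, against those of 1 stage. The submitters' notes also name STAR, GSNAP and Cufflinks. TPM keeps no depth, so the precision of a value is known from the 2 replicates only. Whether replicates are independent matings is not stated in the labels. The 8-cell replicate numbers followed the titles.

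Events of 7 types were rebuilt from the 22612 merged transcripts after the definitions of SUPPA2, and PSI was the retained TPM over the summed TPM, taken where the sum reached 1 TPM. Gene names and annotated introns came from GENCODE vM21 on GRCm38. Intron sequences were read where a vM21 exon spans them. Tests used limma (lmFit, eBayes with trend) on log2((retained TPM + 1)/(spliced TPM + 1)) over all events of all types in the libraries of a comparison, and on log2(TPM + 1) for genes, with Benjamini-Hochberg adjustment. A ratio with a pseudocount understates changes of low forms. The test of SUPPA2 was not run. The fit was tested on simulated data.

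Named events were the 10 called members with the largest range among stages, up to 5 called in each of 6 comparisons (or the 5 with the smallest p where none was called), the 5 highest and 5 lowest medians, up to 6 each of splicing and translation genes, and the 3 longest and shortest. Pathway genes called in at least 2 steps were given, with Upf1, Clk1 and Srpk1. The members and lists were chosen with earlier results of these data known. Alternatives were another pseudocount, other filters, PSI as the response, a replicate block, shared fits, other event boundaries and each library left out. Python 3.11.15, numpy 2.4.6, pandas 2.3.3, scipy 1.17.1, matplotlib 3.10.9, R 4.3.3 and limma 3.58.1 were used. Values of some named members are not reported here.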

Additional observations from a re-analysis of the deposited data

How the results depend on the processing

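The count of members was 252 with outer exon boundaries fixed and 542 with them free. Medians of stage-mean PSI over all members, in the order of the 7 stages from sperm to blastocyst, were 48.6%, 22.2%, 33.4%, 34.5%, 42.7%, 41.2% and 46.2%. They moved to 44.4, 29.0, 36.2, 32.5, 38.2, 30.7 and 23.3 with a summed TPM of at least 5, and to 29.2, 65.3, 73.1, 26.3, 13.7, 25.2 and 13.9 with own-stage transcripts, an alternative chosen after seeing the data. Over members measured in all 14 libraries the 6 stages from oocyte on had 9.65, 19.9, 33.5, 26.6, 29.9 and 30.1. A pseudocount moved oocyte to 27.6, 2-cell to 36.9, 4-cell to 43.9 and then 8-cell to 42.6. With 1 library of a stage the medians, in the same order, ran from 50.8 to 51.0, 21.1 to 28.6, 28.4 to 29.5, 36.2 to 40.2, 40.3 to 41.8, 38.4 to 38.5 and 44.3 to 51.4. The count of members higher in every later library was 19 with a summed TPM of at least 5, and 30 to 36 (27 to 32 for annotated introns) with each library left out.

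Called members from 1-cell to 2-cell were 21 in a fit on all 14 libraries and 11 with weights by stage. For the counts of members in this paragraph the shares over all events are not given. From 2-cell to 4-cell these fits gave 1 and 1, from 4-cell to 8-cell 0 and 12, and from 8-cell to blastocyst the weighted one gave 4. From 4-cell to 8-cell a pseudocount of 0.1, PSI as the response and the replicate block each gave 0. Sperm against oocyte fell to 18 with PSI as the response. The test among stages called 49 with any TPM over 0, 18 at 5 TPM or more and 52 with sperm. With each library left out, calls ran from 0 to 0 for oocyte to 1-cell, 1-cell to 2-cell and 8-cell to blastocyst, 0 to 14 for 2-cell to 4-cell (14 without 2-cell replicate 2), 0 to 0 for 4-cell to 8-cell, 0 to 20 for sperm against oocyte and 26 to 44 among stages. A lone library was then assumed to vary like the other group. Among named members 1 value reversed: the PSI difference of Bglap3 from oocyte to 1-cell was -0.742 points without 1-cell replicate 1 and 41.1 points without replicate 2.

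Pathway genes called from 1-cell to 2-cell were 3 with no filter, 3 with quantile normalization and 0 with the replicate block, from 4-cell to 8-cell 6 with quantile normalization and 0 in a fit on all 14 libraries, and from 8-cell to blastocyst 4 with the block. With each library left out they ran from 0 to 0 for oocyte to 1-cell, 0 to 10 for 1-cell to 2-cell (0 without either 1-cell library), 0 to 29 for 2-cell to 4-cell (15 and 29 without 2-cell replicate 1 and 2), 4 to 14 for 4-cell to 8-cell (4 without 4-cell replicate 2, 6 without 4-cell replicate 1) and 0 to 14 for 8-cell to blastocyst (14 and 4 without blastocyst replicate 1 and 2). The cause of these changes was not tested.

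The labels do not tie equal replicate numbers of different stages to a shared batch. The correlation of same-numbered deviations was over 0.1 in 3 of 6 comparisons and ran from -0.20 to 0.26 over them, so the numbers were not taken as pairs. A replicate block gave 38 members for sperm against oocyte and 30 among stages. With the numbers of 1 stage crossed, chosen after seeing the data, 14 members were called from 1-cell to 2-cell. TPM carries no depth, so low forms may be near the limit of detection without this being visible.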
